A study of Rattus norvegicus with 7 samples.

Results

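Rat lenses cultured with galactose were compared here with lenses cultured without it, over every gene that the array measured above its low signals. All lenses came from 6-week-old male Sprague Dawley rats and were kept whole in M199 medium with bovine serum albumin. The Galactose group (3 arrays) was cultured for 6 days with 30 mM galactose. The Control group (2 arrays) received sterile water in place of galactose, for 4 days in 1 array and for 6 days in the other, named Control Day 4 and Control Day 6. These are 5 of the 7 arrays of the series. The other 2, the Glutamate group, were cultured for 6 days with 30 mM galactose and 20 mM glutamate added for the last part of the culture. They entered here into the estimate of the spread, the filter on signals and the choice of a probe for each gene, and not into the differences. RNA of each sample went on 1 array (Rat Gene 2.0 ST GeneChip), and each value is a log2 signal per probe, on which 1 unit is a 2-fold difference. The platform annotation names a gene for 19086 of the 36685 probes, and 5320 of them exceeded a log2 signal of 5 in at least 1 of the 7 arrays. They stand for 5031 genes on probes with 1 gene, with 191 further probes that name several genes. Whole lenses in culture are a model that lacks the blood, the aqueous humour and the other tissues of the eye, and nothing in the labels or methods says how many lenses or animals were behind an array.

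The lens is a closed organ of a single epithelial sheet over a mass of elongated fibre cells that have lost their organelles and hold crystallins at very high concentration. Galactose that enters these cells is reduced by aldose reductase to galactitol, a polyol that leaves the cell slowly, draws in water and is the classical cause of the sugar cataract. Cells in hypertonic surroundings gather small compatible solutes, such as myo-inositol, taurine and some amino acids, through transporters whose genes are switched on by the transcription factor NFAT5, while swollen cells lose them. Opacity in the cultured lens begins in the cortex near the equator, where epithelial cells divide and turn into fibres.

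The arrays held lens RNA. All 9 lens fibre markers with a probe were above 5 in each of the 5 arrays, and their summed signal, on the log2 scale, was between 15.03 and 15.06 in the Galactose arrays, against 15.16 for Control Day 4 and 15.05 for Control Day 6. Of 8 lens epithelium markers, 5, 6 and 5 were above 5 in the Galactose arrays, against 7 in each Control array, with summed signals of 10.003 to 10.76 in Galactose, against 10.24 and 10.29 in the Controls. These markers did not move together. Foxe3 and Aqp1 lay below both Controls, as did Krt18 at low signals. Pdpn lay above both, at 9.32, 9.54 and 9.79 in the Galactose arrays, against 7.34 in Control Day 4 and 8.57 in Control Day 6. It had the highest signal of the list in each Galactose array. Pax6, Cdh1, Gja1 and Cdkn1c did not separate the groups. Markers of ciliary body and iris, retina, leukocytes and vessels had at most 1 member above 5 in any array. Of 8 fibroblast and muscle markers, Col1a1, Col1a2, Dcn, Lum, Thy1 and Myh11 stayed below 4 in each of these arrays. Pdgfra and Des alone exceeded 5 in an array, and both were lower in Galactose. The summed signal of that list was therefore 6.38 to 6.62 in Galactose, against 8.05 in Control Day 4 and 7.59 in Control Day 6. Which cells expressed Pdgfra and Des, and whether cells other than those of the lens were present, was not tested. In RNA of whole lenses, fewer cells of a type and less RNA per cell cannot be told apart.

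The Galactose arrays resembled Control Day 4 far more than Control Day 6, the Control of the same culture time. Against Control Day 4, 453 to 533 of the 5320 probes (8.52% to 10.02%) were at least 2-fold apart in a Galactose array, and against Control Day 6 the number was 1548 to 1606 (29.1% to 30.2%), of which 1300 to 1420 were higher in Galactose. Control Day 6 and Control Day 4 themselves were at least 2-fold apart at 1521 probes (28.6%), 1352 of them lower in Control Day 6. Among the Galactose arrays, Galactose 2 and 3 differed at 35 probes and Galactose 1 differed from them at 164 and 181. The culture time of a Control and the array that measured it cannot be told apart, since each time has 1 array. For this reason both Control values are given beside the genes described.

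**Figure D1:**
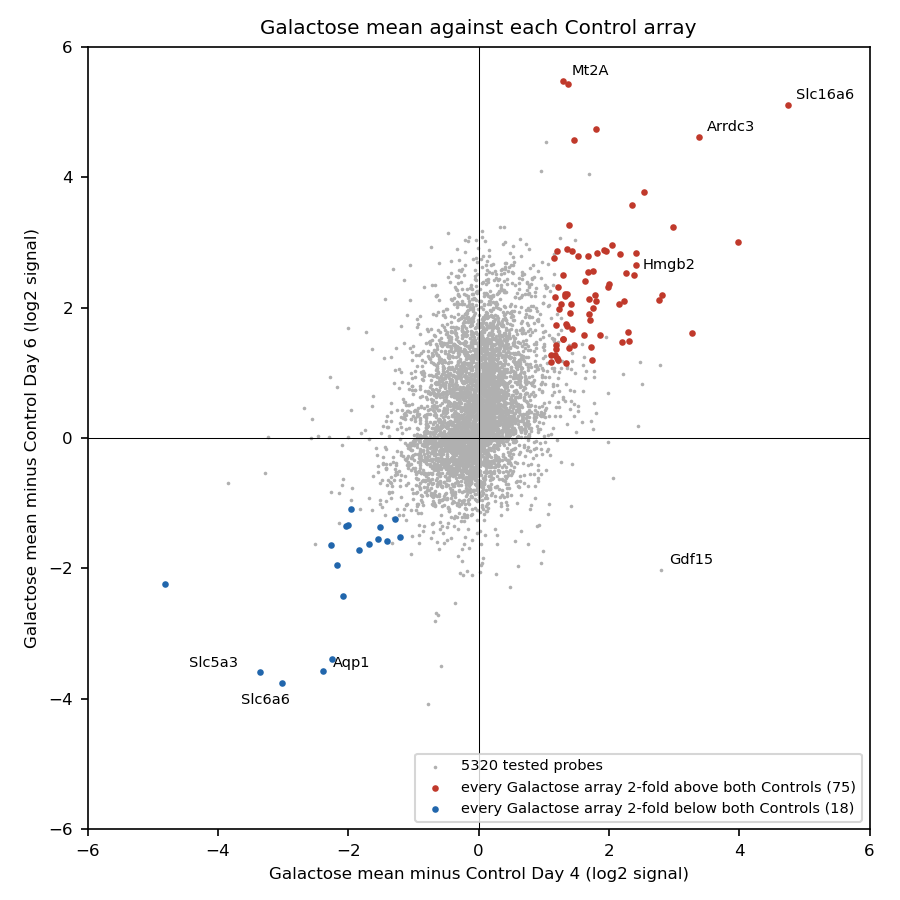
Each point is 1 of the 5320 tested probes, with the Galactose mean minus Control Day 4 on the x axis and the Galactose mean minus Control Day 6 on the y axis, both in log2 signal. The cloud is stretched upwards, with 1364 probes at least 2-fold above Control Day 6 and 197 at least 2-fold above Control Day 4, and the coloured points mark the 75 probes with every Galactose array 2-fold above both Controls (red) and the 18 with every Galactose array 2-fold below both (blue).

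Taking the Galactose mean against each Control array, 132 probes were at least 2-fold above both and 37 at least 2-fold below both. A further 1210 were above Control Day 6 alone and 125 below it alone, while 61 were above Control Day 4 alone and 157 below it alone. The median difference over all tested probes was -0.02 against Control Day 4 and 0.32 against Control Day 6. Most of the difference from Control Day 6 was therefore not shared by Control Day 4, and the genes described first are those that stood apart from both.

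Of the 5320 probes, 3 were higher in Galactose (0.0564%) and 2 were lower (0.0376%) at an adjusted p under 0.05 (limma, Benjamini-Hochberg adjustment over all tested probes). The rises were those of Slc16a6, Arrdc3 and Hmgb2, and the falls those of Slc5a3 and Slc6a6. Without adjustment, at p under 0.05, the numbers were 626 (11.8%) with a higher mean in Galactose and 278 (5.23%) with a lower one. In 1143 probes (21.5%) every Galactose array lay above both Control arrays, and in 642 (12.1%) every one lay below. With a gap of at least 2-fold, these numbers were 75 (1.41%) and 18 (0.338%). Of the 5031 tested genes, 514 were above 5 in a Galactose array and in no Control, and 473 were above 5 in a Control and in no Galactose array, so that the choice by signal already set these apart. Gene lists are therefore described over all their members with a probe, those at low signals included, beside all 18166 genes with a probe. Of these, 10.7% lay above both Controls and 8.87% below, with medians of 0.01 and -0.01 against Control Day 4 and Control Day 6. Most of these 18166 genes were at low signals. For a list whose members were mostly tested, the larger shares over tested probes (21.5% and 12.1%) are the nearer comparison. Scaling moved the balance of the directions. After a second quantile normalization the median difference over all tested probes was 0.0046 in place of 0.17, and the numbers at an unadjusted p under 0.05 were 538 and 522, so that 50.8% of them were higher in place of 69.2%. Since the Control arrays lie far apart for many genes, the fit gives a large standard error to a gene that only 1 Control separates from Galactose.

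Slc16a6, of the family of monocarboxylate transporters, whose zebrafish counterpart exports ketone bodies from liver cells, had log2 signals of 7.63, 7.63 and 7.87 in the Galactose arrays, against 2.96 in Control Day 4 and 2.60 in Control Day 6. It rose by 4.93 in log2 signal (standard error 0.37, adjusted p = 0.0234 in limma). Both Controls were near the median of all probes of their array (2.79 in Control Day 4 and 2.94 in Control Day 6), and such signals may not be above background, so that no linear fold is given where a group was below 5. Arrdc3, an alpha-arrestin that links membrane proteins to ubiquitin ligases, was at 7.97, 8.44 and 8.40 in the Galactose arrays, against 4.89 in Control Day 4 and 3.65 in Control Day 6, a rise of 4.00 (standard error 0.40, adjusted p = 0.0315). Hmgb2, a high mobility group protein that bends DNA in chromatin, was at 6.45, 6.65 and 6.96 in the Galactose arrays, against 4.30 in Control Day 4 and 4.19 in Control Day 6, and rose by 2.44 (standard error 0.25, adjusted p = 0.0315). Hmgb2 had the closest pair of Control values of the 3 genes that rose. Leaving out any 1 Galactose array ended all 5 calls (0 probes in each case). With Control Day 4 left out there were 1717 calls, and with Control Day 6 left out there were 6, of which Arrdc3 was the only 1 shared with these 5.

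The fallen pair were osmolyte transporters. Slc5a3, which carries myo-inositol into the cell with sodium, had signals of 2.43, 1.61 and 2.12 in the Galactose arrays, against 5.41 in Control Day 4 and 5.64 in Control Day 6. It fell by 3.47 in log2 signal (standard error 0.32, adjusted p = 0.0315 in limma), with all Galactose arrays below the median of all probes (2.80 to 2.82). With an intensity trend and a robust prior in the fit Slc5a3 did not pass (adjusted p = 0.139), while the other 4 calls were kept. Slc6a6, the taurine transporter, was at 3.51, 3.58 and 4.29 in the Galactose arrays, against 6.80 in Control Day 4 and 7.55 in Control Day 6, and fell by 3.38 (standard error 0.33, adjusted p = 0.0315). For both genes the Controls lay less than 1 unit apart and no Galactose array was above 5. The list of osmolyte transporters and NFAT5 targets had 9 genes with a probe, 6 of them tested. At least 2-fold below both Controls were 4 of the 9, beside 0.338% of tested probes and 0.116% of all genes with a probe. Slc38a2, the sodium-coupled amino acid transporter SNAT2, was at 5.72, 5.65 and 5.77 in the Galactose arrays, against 7.96 in Control Day 4 and 9.11 in Control Day 6, a 7.08-fold lower mean in Galactose that did not pass the test (adjusted p = 0.0625). Nfat5 itself, the transcription factor of the hypertonic response, was at 3.90, 4.43 and 4.83 in the Galactose arrays, against 6.07 in Control Day 4 and 6.0 in Control Day 6 (log2 difference -1.65, adjusted p = 0.124). Its Control values were nearly equal, and each Galactose array was below 5. Slc5a3, Slc6a6 and Nfat5 were tested through the Controls alone.

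The remaining tested members of this list did not follow. Akr1b1, aldose reductase, was at 8.80, 9.37 and 9.31 in the Galactose arrays, against 9.49 in Control Day 4 and 7.60 in Control Day 6, between the Controls. Slc2a1, a glucose transporter that also takes up galactose, was at 8.70, 9.42 and 9.52 in the Galactose arrays, against 8.96 in Control Day 4 and 7.94 in Control Day 6. Over the 9 genes the median difference was -0.54 against Control Day 4 and -0.48 against Control Day 6. Slc5a11, Hspa4l and Slc14a2 were at 5 or below in every array. Slc38a4, a sodium-coupled amino acid transporter related to Slc38a2, was at 3.25, 2.94 and 3.49 in the Galactose arrays, against 5.23 in Control Day 4 and 4.57 in Control Day 6. Slc12a2, the sodium-potassium-chloride cotransporter NKCC1 that carries salt into the cell, was at 4.66, 3.75 and 4.23 in the Galactose arrays, against 5.54 in Control Day 4 and 5.83 in Control Day 6, lower than both Controls in every array though not by 2-fold in each.

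The promoters of both fallen transporters are shown because the tonicity element, the site that NFAT5 binds, was searched in them on both strands. The sequences are from RefSeq (GRCr8), cover 250 bases before the start and 50 from it on, and carry the match in capitals. The Slc6a6 window (chr4:125752252-125752551, plus strand) held 1 match, on the minus strand and 161 to 151 bases before the start, and the Slc5a3 window (chr11:44799537-44799836, plus strand) held 0. Over all 33469 promoters of this length 5.98% held a match, and over those of tested genes 3.16%. Among the 17 promoters of genes 2-fold below both Controls, those of Slc6a6, Slc38a4 and Inhba held one.
Slc6a6: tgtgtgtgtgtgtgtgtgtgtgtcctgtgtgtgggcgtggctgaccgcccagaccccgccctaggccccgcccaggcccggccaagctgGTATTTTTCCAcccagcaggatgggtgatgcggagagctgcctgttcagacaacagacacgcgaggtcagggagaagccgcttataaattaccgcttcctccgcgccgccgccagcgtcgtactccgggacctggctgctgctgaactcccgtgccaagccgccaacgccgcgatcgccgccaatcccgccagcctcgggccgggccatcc
Slc5a3: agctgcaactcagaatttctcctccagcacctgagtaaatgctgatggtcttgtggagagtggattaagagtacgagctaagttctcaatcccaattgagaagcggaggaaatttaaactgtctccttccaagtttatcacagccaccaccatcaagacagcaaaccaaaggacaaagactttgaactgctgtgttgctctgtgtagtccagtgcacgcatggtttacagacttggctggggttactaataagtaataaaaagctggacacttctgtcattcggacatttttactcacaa

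Aqp1, a water channel of the lens epithelium, had one of the largest negative differences. Its signals were 4.34, 5.13 and 4.85 in the Galactose arrays, against 7.17 in Control Day 4 and 8.34 in Control Day 6 (log2 difference -2.98, adjusted p = 0.0633). Mip, the water channel of fibre cells also known as aquaporin 0, was at 10.96, 10.81 and 10.89 in the Galactose arrays, against 11.29 in Control Day 4 and 11.88 in Control Day 6, lower in every Galactose array by less than 2-fold against Control Day 4. Aqp5 was at 5.72, 5.63 and 5.72 in the Galactose arrays, against 6.64 in Control Day 4 and 3.86 in Control Day 6, between the Controls. Of the 10 aquaporins with a probe 3 were tested, and Aqp1 and Mip were the only ones of the 10 below both Controls. Their share was 20%, beside 8.87% of all genes and 12.1% of tested probes.

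**Figure D2:**
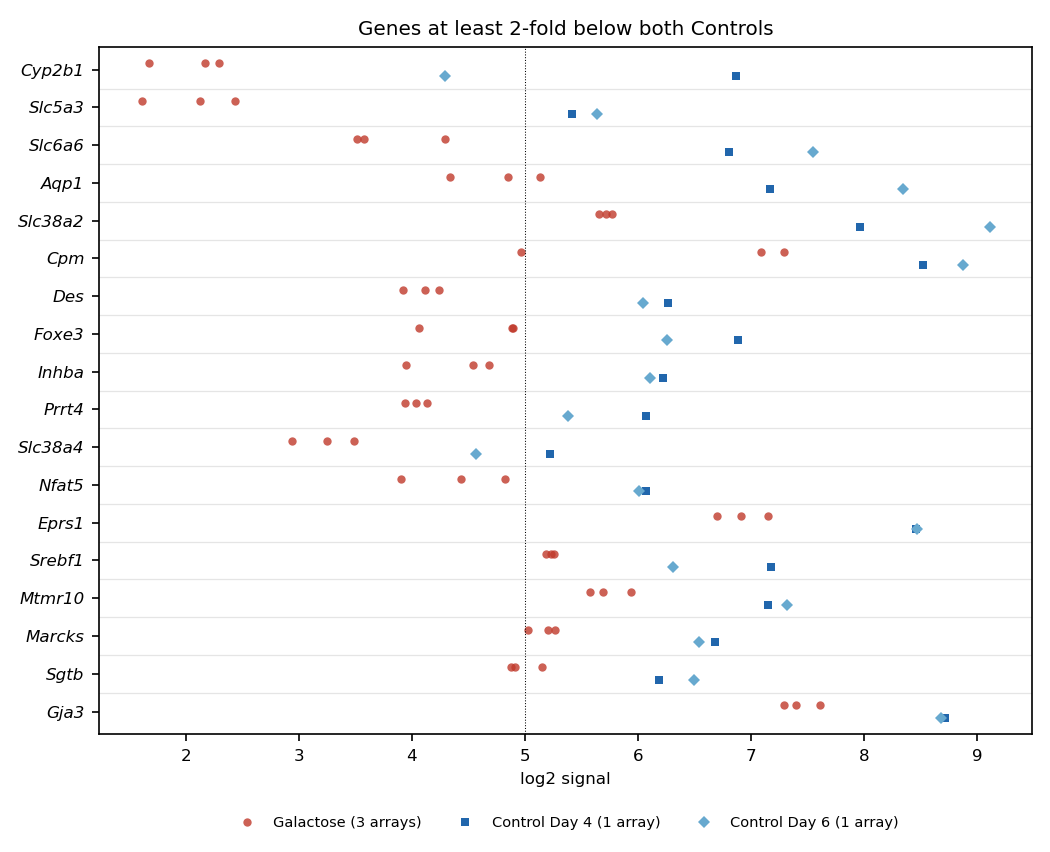
Log2 signals of the 18 genes for which every Galactose array was at least 2-fold below both Controls, with the 3 Galactose arrays as circles above Control Day 4 (square) and Control Day 6 (diamond), and a dotted line at the threshold of 5. The 2 Control symbols nearly coincide for Gja3, Eprs1, Nfat5, Inhba and Marcks, and lie farthest apart for Cyp2b1.

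Several genes of the lens itself also had lower signals in Galactose. Foxe3, a forkhead factor that keeps lens epithelial cells dividing and undifferentiated, was at 4.07, 4.89 and 4.89 in the Galactose arrays, against 6.88 in Control Day 4 and 6.25 in Control Day 6 (log2 difference -1.95, adjusted p = 0.0896). Gja3, connexin 46 of fibre gap junctions, was at 7.40, 7.29 and 7.61 in the Galactose arrays, against 8.71 in Control Day 4 and 8.67 in Control Day 6. Both genes had every Galactose array at least 2-fold below both Controls, and neither passed the test. Of 14 lens transcription and RNA factors, 12 had a lower mean in Galactose and 6 lay below both Controls and 0 above, with a median of -0.58 against Control Day 4 and -0.19 against Control Day 6. The share below was 42.9%, beside 12.1% of tested probes. Prox1, which drives fibre differentiation, was at 6.97, 7.21 and 7.30 in the Galactose arrays, against 7.83 in Control Day 4 and 8.19 in Control Day 6. Rbm24, an RNA-binding protein that stabilises fibre transcripts, was at 5.79, 5.61 and 6.18 in the Galactose arrays, against 7.24 in Control Day 4 and 6.69 in Control Day 6. Celf1, an RNA-binding protein of fibre cells, was at 7.35, 7.62 and 7.88 in the Galactose arrays, against 8.18 in Control Day 4 and 8.96 in Control Day 6 on the probe with the higher mean, and its second probe did not separate the groups. Pax6, the factor at the head of eye development, was at 6.39, 7.52 and 7.49 in the Galactose arrays, against 7.23 in Control Day 4 and 6.74 in Control Day 6, with Galactose 2 and 3 above both Controls and Galactose 1 below.

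Of 14 genes of fibre membrane and cytoskeleton, 5 lay below both Controls (35.7%, beside 12.1% of tested probes) and 1 above, with a median of -0.35 against Control Day 4 and 0.01 against Control Day 6. Nrcam, a cell adhesion molecule, was at 6.17, 5.71 and 6.39 in the Galactose arrays, against 7.19 in Control Day 4 and 7.10 in Control Day 6. Dnase2b, the nuclease that clears fibre nuclei, was the 1 gene above, at 7.64, 8.03 and 7.73 in the Galactose arrays, against 7.18 in Control Day 4 and 7.30 in Control Day 6. Crystallins, which fill the fibres, differed little. Of 15 crystallins and small heat shock proteins, 5 lay above both Controls (33.3%, beside 21.5% of tested probes) and 0 below, with medians of 0.05 and 0.34 against Control Day 4 and Control Day 6. Cryba1 was at 13.15, 13.11 and 13.09 in the Galactose arrays, against 13.13 in Control Day 4 and 13.13 in Control Day 6, and Crygs at 12.51, 12.52 and 12.53 in the Galactose arrays, against 12.49 in Control Day 4 and 12.25 in Control Day 6. Hspb8, a small heat shock protein that takes part in autophagy, had the largest difference of the list, at 6.79, 6.81 and 5.58 in the Galactose arrays, against 3.62 in Control Day 4 and 5.27 in Control Day 6.

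Wnt signalling maintains the lens epithelium. Of 21 regulators of it, 7 lay below both Controls (33.3%, beside 8.87% of all genes and 12.1% of tested probes) and 0 above. The medians were -0.06 against Control Day 4 and -0.14 against Control Day 6. Only 7 of the 21 were tested, and 2 of these were above 5 in a Control alone. Sfrp1, a secreted inhibitor of Wnt ligands, was at 8.53, 8.83 and 9.29 in the Galactose arrays, against 9.82 in Control Day 4 and 9.93 in Control Day 6. Fzd2, a Wnt receptor, was at 3.54, 4.11 and 3.82 in the Galactose arrays, against 4.74 in Control Day 4 and 5.15 in Control Day 6, and Dact1, an intracellular Wnt antagonist, at 4.26, 4.54 and 3.98 in the Galactose arrays, against 5.11 in Control Day 4 and 5.28 in Control Day 6. Of 20 genes of TGF-beta and activin signalling, 2 lay below both Controls and 0 above, a share (10%) near the 8.87% of all genes. These were Inhba, the subunit of activin A, at 3.95, 4.54 and 4.68 in the Galactose arrays, against 6.22 in Control Day 4 and 6.10 in Control Day 6, and Tgfbr1, a type I receptor, at 5.39, 5.54 and 5.57 in the Galactose arrays, against 5.89 in Control Day 4 and 6.34 in Control Day 6. Of 16 genes of the lens capsule, 12 of them tested, 2 lay below both Controls (12.5%, near the 12.1% of tested probes). Above both was 1 (6.25%, beside 21.5%). Nid1, nidogen of the basement membrane, was at 5.97, 7.61 and 8.03 in the Galactose arrays, against 8.33 in Control Day 4 and 8.23 in Control Day 6, with Galactose 1 far below the other arrays, and Col4a3, a capsule collagen chain, was at 5.02, 5.84 and 6.13 in the Galactose arrays, against 6.35 in Control Day 4 and 6.50 in Control Day 6.

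Of the other genes at least 2-fold below both Controls, Cyp2b1, a cytochrome P450 of drug metabolism, had signals of 2.30, 2.17 and 1.67 in the Galactose arrays, against 6.86 in Control Day 4 and 4.29 in Control Day 6. Its Galactose arrays were below the median of all probes (2.80 to 2.82), and its Controls were far apart. Cpm, a membrane carboxypeptidase, was at 4.97, 7.09 and 7.29 in the Galactose arrays, against 8.52 in Control Day 4 and 8.87 in Control Day 6. Eprs1, the synthetase that charges tRNAs with glutamate and proline, was at 6.91, 6.70 and 7.15 in the Galactose arrays, against 8.45 in Control Day 4 and 8.46 in Control Day 6, with nearly equal Controls. The other 20 aminoacyl-tRNA synthetases with a probe had none 2-fold apart from both Controls. Srebf1, a transcription factor of lipid synthesis, was at 5.18, 5.23 and 5.26 in the Galactose arrays, against 7.18 in Control Day 4 and 6.31 in Control Day 6, and Marcks, which binds actin and the plasma membrane, at 5.03, 5.26 and 5.21 in the Galactose arrays, against 6.68 in Control Day 4 and 6.54 in Control Day 6. Des, the muscle intermediate filament desmin, was at 4.24, 3.92 and 4.12 in the Galactose arrays, against 6.26 in Control Day 4 and 6.04 in Control Day 6. Prrt4, Mtmr10 and Sgtb complete the 18, with log2 differences of -1.69, -1.50 and -1.36. Pdgfra, a growth factor receptor on the same marker list as Des, is not one of the 18, at 4.68, 5.11 and 5.43 in the Galactose arrays, against 7.21 in Control Day 4 and 6.38 in Control Day 6.

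Metallothioneins, small proteins that bind zinc and copper and are induced by metals, oxidants and glucocorticoids, had signals at least 2-fold above both Controls in every Galactose array, and did not pass the test. Mt1 was at 9.66, 10.03 and 9.19 in the Galactose arrays, against 7.28 in Control Day 4 and 6.05 in Control Day 6, a 7.79-fold higher mean (log2 difference 2.96, standard error 0.49, adjusted p = 0.0875). Mt2A was at 11.20, 11.63 and 11.14 in the Galactose arrays, against 10.02 in Control Day 4 and 5.85 in Control Day 6 (log2 difference 3.39, standard error 1.11, adjusted p = 0.228). Its Controls were more than 4 units apart, and the Galactose arrays exceeded Control Day 4 by a little over 1 unit. The second Mt2A probe was at 8.06, 8.27 and 7.82 in the Galactose arrays, against 6.68 in Control Day 4 and 2.62 in Control Day 6. A second Mt1 probe was at 5 or below in every array and was not tested, at 4.97, 4.48 and 3.66 in the Galactose arrays, against 1.96 in Control Day 4 and 2.43 in Control Day 6. Mt1f, a further probe of the family, was at 8.41, 8.07 and 6.93 in the Galactose arrays, against 5.76 in Control Day 4 and 4.84 in Control Day 6. These genes are near-identical copies, and a probe of one may bind RNA of another. The zinc transporters Slc30a5, Slc30a7, Slc39a1 and Slc39a6, and Mtf1, the zinc sensor that switches metallothioneins on, did not show such a gap, with signals of 5.62, 5.78 and 5.40 in the Galactose arrays, against 5.73 in Control Day 4 and 6.17 in Control Day 6 for Mtf1.

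The promoters of Mt1 and Mt2A are shown for the metal response element that Mtf1 binds, searched on both strands as TGCNCNC and printed in capitals. The Mt1 window (chr19:10832926-10833225, minus strand, RefSeq GRCr8) held 7 matches and the Mt2A window (chr19:10838659-10838958, minus strand) held 5. At least 1 match was found in 49.6% of all 33469 promoters, at least 5 in 0.669% and at least 7 in 0.108%. Among promoters of tested genes 60.9% held at least 1, among the 60 of genes 2-fold above both Controls 56.7%, and among the 17 of genes 2-fold below both 76.5%.
Mt1: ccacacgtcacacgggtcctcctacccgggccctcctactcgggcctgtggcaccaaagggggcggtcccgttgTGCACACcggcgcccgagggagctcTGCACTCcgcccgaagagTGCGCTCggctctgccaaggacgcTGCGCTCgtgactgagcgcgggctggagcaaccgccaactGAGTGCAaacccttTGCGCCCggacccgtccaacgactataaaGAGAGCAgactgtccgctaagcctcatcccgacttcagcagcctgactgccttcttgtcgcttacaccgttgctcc
Mt2A: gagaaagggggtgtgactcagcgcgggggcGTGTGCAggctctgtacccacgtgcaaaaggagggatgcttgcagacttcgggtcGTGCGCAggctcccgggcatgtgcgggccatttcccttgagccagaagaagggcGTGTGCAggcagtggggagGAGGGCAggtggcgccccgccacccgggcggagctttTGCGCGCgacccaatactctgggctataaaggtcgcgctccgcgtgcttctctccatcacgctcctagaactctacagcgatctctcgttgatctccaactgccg

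**Figure D3:**
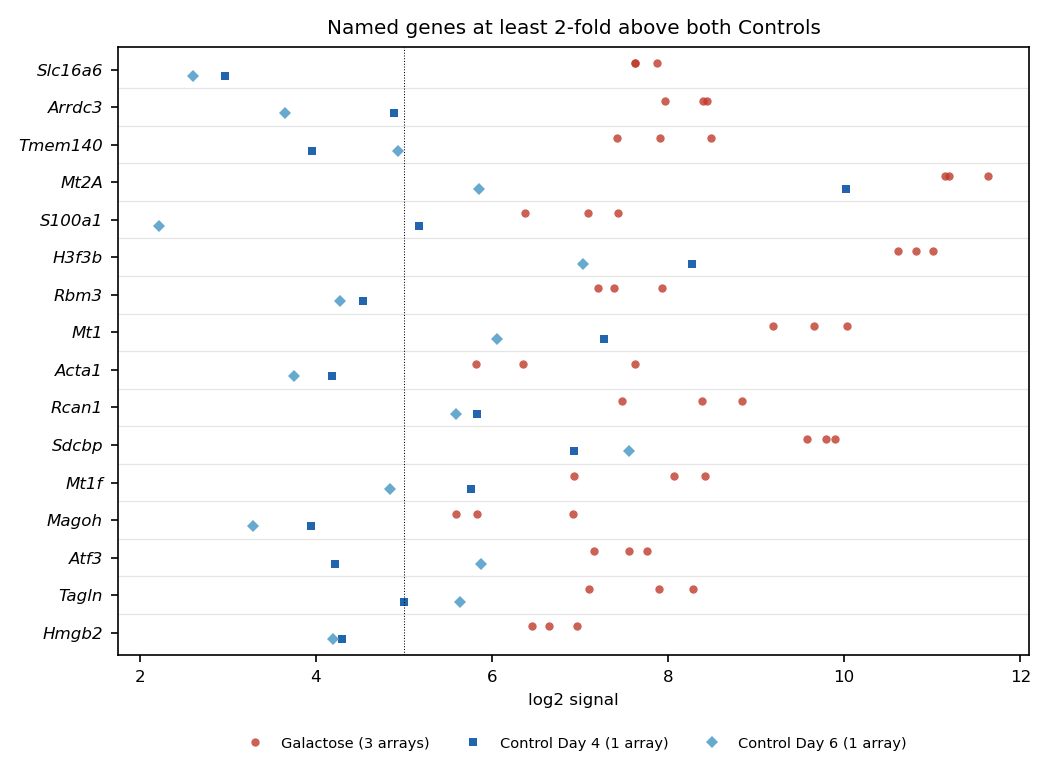
Log2 signals of the 16 named genes for which every Galactose array was at least 2-fold above both Controls, with the 3 Galactose arrays as circles above Control Day 4 (square) and Control Day 6 (diamond), and a dotted line at the threshold of 5. Slc16a6 has the widest gap to both Controls, while Mt2A and S100a1 are far above Control Day 6 and much nearer to Control Day 4.

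Of 41 genes of DNA synthesis and the cell cycle with a probe, 20 lay above both Controls and 0 below, 48.8% of the list beside 10.7% of all genes, and the median was 0.41 against Control Day 4 and 0.54 against Control Day 6. The list had 8 tested genes, of which 4 were above 5 in Galactose alone, and 1 passed the test. Pcna, the sliding clamp of DNA polymerase, was at 6.94, 6.69 and 6.58 in the Galactose arrays, against 5.41 in Control Day 4 and 4.52 in Control Day 6. Tyms, thymidylate synthase, was at 5.26, 6.25 and 5.85 in the Galactose arrays, against 4.16 in Control Day 4 and 4.20 in Control Day 6, and Rrm2, the small subunit of ribonucleotide reductase, at 4.25, 5.46 and 5.59 in the Galactose arrays, against 2.94 in Control Day 4 and 3.04 in Control Day 6. Mki67, the Ki-67 protein of cycling cells, was at 5.02, 4.97 and 5.76 in the Galactose arrays, against 4.03 in Control Day 4 and 4.33 in Control Day 6. Pcna, Tyms, Rrm2 and Mki67 did not pass the test, and Hmgb2 was the only member that did. The other 33 genes of the list with a probe were at 5 or below in every array, where 30 had a higher mean in Galactose and 14 lay above both Controls, with a median difference of 0.40 from the Control mean. Ccnd2, cyclin D2 of early G1, was at 6.45, 6.89 and 7.17 in the Galactose arrays, against 6.92 in Control Day 4 and 6.59 in Control Day 6, and did not separate the groups.

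Of 41 histone genes, 24 of them tested, 17 lay above both Controls (41.5%, beside 10.7% of all genes and 21.5% of tested probes). Another 2 (4.88%) lay below both, beside 8.87% and 12.1%. At least 2-fold above both were 4, beside 0.374% of all genes and 1.41% of tested probes. The median was 0.21 against Control Day 4 and 0.50 against Control Day 6. Of the tested genes, 4 were above 5 in Galactose alone. H3f3b, which encodes the replacement histone H3.3, was at 10.62, 11.01 and 10.81 in the Galactose arrays, against 8.27 in Control Day 4 and 7.03 in Control Day 6, an 8.94-fold higher mean (adjusted p = 0.0626). H2ac25 was at 7.44, 8.07 and 7.76 in the Galactose arrays, against 5.80 in Control Day 4 and 4.88 in Control Day 6, and H2ax, the variant phosphorylated at DNA breaks, at 5.80, 5.98 and 5.68 in the Galactose arrays, against 4.78 in Control Day 4 and 3.52 in Control Day 6. Histone genes are near-identical copies, and a probe may bind RNA of several. H2ac25 and H3f3b were also at least 2-fold above Control Day 4 in every array.

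Of 14 tubulins and microtubule genes, 5 lay above both Controls (35.7%, beside 21.5% of tested probes) and 1 below (7.14%, beside 12.1%). The list had 3 at least 2-fold above both, beside 1.41% of tested probes. Tuba1c, an alpha-tubulin, was at 7.84, 8.58 and 8.42 in the Galactose arrays, against 6.04 in Control Day 4 and 6.18 in Control Day 6. Tubb2a and Tubb3, beta-tubulins, were at 7.89, 7.75 and 7.44 in the Galactose arrays, against 6.07 in Control Day 4 and 5.28 in Control Day 6, and at 6.01, 5.59 and 5.38 in the Galactose arrays, against 3.91 in Control Day 4 and 3.10 in Control Day 6. Map4, which stabilises microtubules, was the 1 below, at 7.50, 7.91 and 7.95 in the Galactose arrays, against 8.32 in Control Day 4 and 8.23 in Control Day 6. Of 34 genes of actin and the targets of Srf, 14 lay above both Controls (41.2%, beside 21.5% of tested probes). Another 1 (2.94%) lay below both, and 3 were at least 2-fold above both, beside 1.41% of tested probes. The medians were 0.38 and 0.80, and 5 of the 29 tested genes were above 5 in Galactose alone. Tagln, an actin-binding protein of contractile cells, was at 7.11, 7.90 and 8.28 in the Galactose arrays, against 5.0 in Control Day 4 and 5.64 in Control Day 6, and Acta1, skeletal muscle alpha-actin, at 5.82, 6.35 and 7.62 in the Galactose arrays, against 4.18 in Control Day 4 and 3.75 in Control Day 6. Csrp1, a LIM protein of the same programme, was at 6.73, 6.80 and 6.89 in the Galactose arrays, against 5.10 in Control Day 4 and 5.0 in Control Day 6. Actb, an abundant cytoplasmic actin, was at 11.91, 12.22 and 12.05 in the Galactose arrays, against 11.59 in Control Day 4 and 11.66 in Control Day 6, a difference of 0.44 (standard error 0.28). Actg1, the other cytoplasmic actin, is measured only by probes that also name Actg1l1, so it is not on the list. Such a probe was at 10.87, 11.81 and 11.67 in the Galactose arrays, against 9.64 in Control Day 4 and 9.35 in Control Day 6. A further such probe was also at least 2-fold above both Controls, and neither passed the test.

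**Figure D4:**
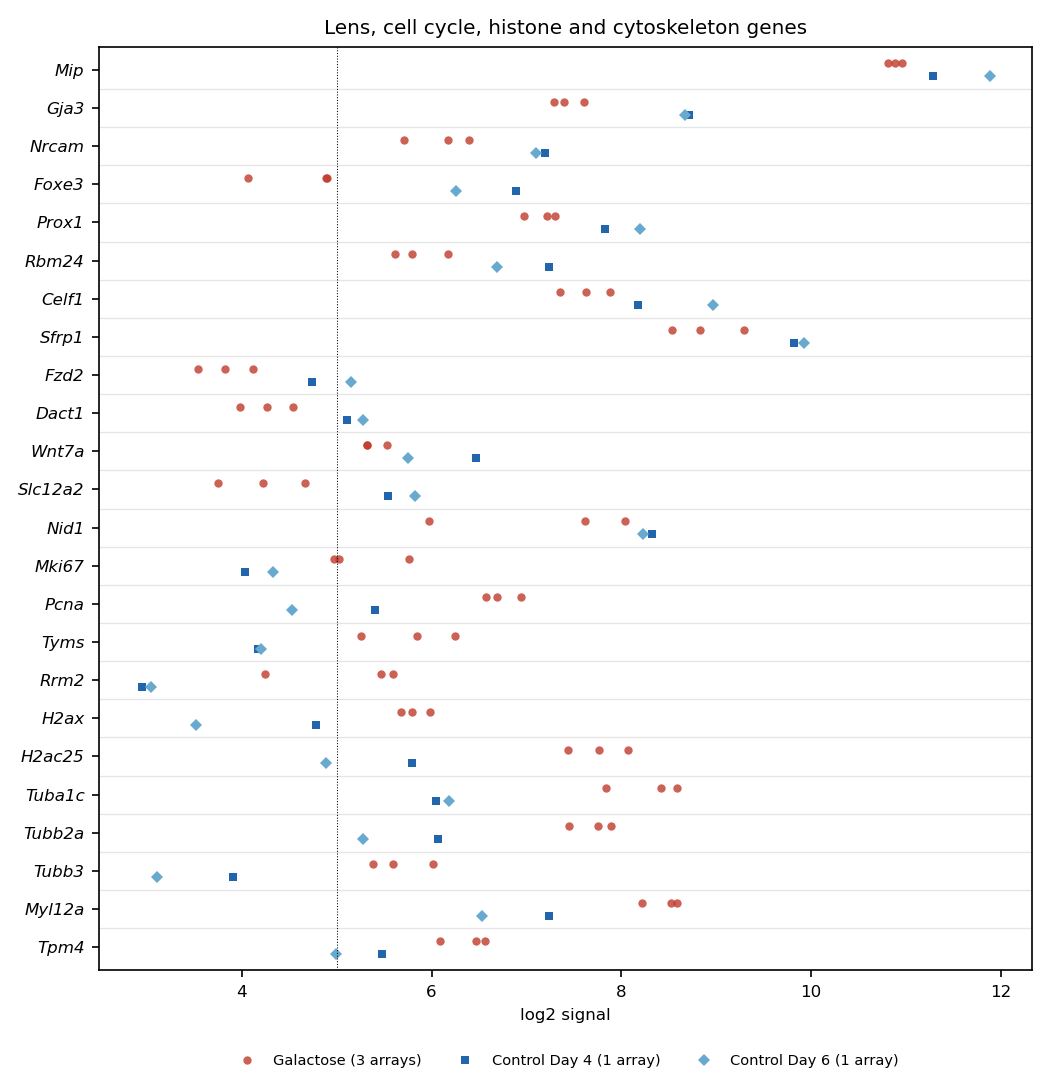
Log2 signals of 24 genes of the lens, the cell cycle, histones and the cytoskeleton, with the 3 Galactose arrays as circles above Control Day 4 (square) and Control Day 6 (diamond), and a dotted line at the threshold of 5. From Mip to Nid1 every Galactose array is left of both Controls, and from Mki67 to Tpm4 every Galactose array is right of both. The genes drawn were selected among those that separate the groups, so this split is no result for their lists. Members that did not separate the groups, such as Pax6, are not drawn. Nor are those that went the other way, such as Map4 and the nuclease of fibre nuclei.

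Stress genes were mixed. The integrated stress response is the programme of Atf4 and Ddit3 that cells start when protein synthesis is slowed. Of 30 of its genes, 24 of them tested, 4 lay above both Controls (13.3%, beside 21.5% of tested probes). Below both were 3 (10%, near 12.1%), and the median was -0.14 against Control Day 4 and 0.19 against Control Day 6. Atf3, a transcription factor induced by many stresses, was at 7.55, 7.76 and 7.16 in the Galactose arrays, against 4.21 in Control Day 4 and 5.88 in Control Day 6. Ddit3, the factor CHOP, was at 9.54, 8.69 and 9.54 in the Galactose arrays, against 8.72 in Control Day 4 and 6.55 in Control Day 6, so that Control Day 4 was above Galactose 2. Chac1, a glutathione-degrading target of the same programme, was at 6.66, 5.54 and 5.75 in the Galactose arrays, against 7.81 in Control Day 4 and 7.07 in Control Day 6, below both Controls, and Trib3 at 5.37, 5.19 and 5.87 in the Galactose arrays, against 6.08 in Control Day 4 and 5.83 in Control Day 6. Atf4 itself was at 9.73, 9.85 and 9.98 in the Galactose arrays, against 9.49 in Control Day 4 and 9.73 in Control Day 6. Of 22 chaperones of the endoplasmic reticulum, 8 lay above both Controls (36.4%, beside 21.5% of tested probes) and 0 below, with medians of 0.16 and 0.47. P4hb, protein disulphide isomerase, was at 7.70, 8.19 and 8.23 in the Galactose arrays, against 7.02 in Control Day 4 and 6.78 in Control Day 6, Dnajb9, a chaperone induced by the unfolded protein response, at 6.03, 6.81 and 6.21 in the Galactose arrays, against 5.21 in Control Day 4 and 4.81 in Control Day 6, and Hspa5, the chaperone BiP, at 9.21, 9.14 and 9.06 in the Galactose arrays, against 8.17 in Control Day 4 and 8.64 in Control Day 6. None of these genes passed the test.

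Of 16 genes of Nrf2 and glutathione, 6 lay above both Controls (37.5%, beside 21.5% of tested probes) and 0 below. Nfe2l2, the Nrf2 factor itself, was at 7.23, 7.71 and 7.50 in the Galactose arrays, against 6.26 in Control Day 4 and 6.0 in Control Day 6, with a difference of 1.35 (standard error 0.22, adjusted p = 0.0875). Among its targets, Nqo1, a quinone reductase, was at 4.48, 5.64 and 5.31 in the Galactose arrays, against 3.49 in Control Day 4 and 4.11 in Control Day 6, and Hmox1, haem oxygenase, at 10.49, 10.98 and 11.17 in the Galactose arrays, against 9.84 in Control Day 4 and 10.42 in Control Day 6. Gclc and Gclm, the subunits of the enzyme that starts glutathione synthesis, were at 5.04, 5.30 and 5.35 in the Galactose arrays, against 5.11 in Control Day 4 and 5.42 in Control Day 6, and at 6.38, 6.75 and 6.73 in the Galactose arrays, against 7.09 in Control Day 4 and 6.39 in Control Day 6. Neither of this pair separated the groups, while Nfe2l2 and Nqo1 did so without passing the test. Of 18 antioxidant enzymes, 6 lay above both Controls (33.3%, beside 21.5% of tested probes) and 0 below, and the median was 0.13 against Control Day 4 and 1.36 against Control Day 6. Gpx1, glutathione peroxidase, was at 7.57, 7.35 and 7.21 in the Galactose arrays, against 6.61 in Control Day 4 and 4.47 in Control Day 6, and Prdx1, a peroxiredoxin, at 6.96, 7.10 and 7.07 in the Galactose arrays, against 6.70 in Control Day 4 and 4.77 in Control Day 6.

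Txnip, an alpha-arrestin that binds thioredoxin and is induced by sugar phosphates, was at 8.08, 9.61 and 9.31 in the Galactose arrays, against 7.30 in Control Day 4 and 4.95 in Control Day 6. Every Galactose array was above both Controls, and Galactose 1 was within 1 unit of Control Day 4. Of the 12 alpha-arrestins and thioredoxin genes, 4 lay above both Controls (33.3%) and 2 below (16.7%), with medians of 0.19 and 0.33. Over all genes these shares were 10.7% and 8.87%, and over tested probes 21.5% and 12.1%. Of 11 monocarboxylate transporters and partners, 3 lay above both Controls (27.3%) and 1 below (9.09%), beside the same shares. The 3 above were Slc16a6, Slc16a1 at 6.51, 6.50 and 6.71 in the Galactose arrays, against 5.46 in Control Day 4 and 5.41 in Control Day 6, and Slc16a14 at 4.20, 5.24 and 5.52 in the Galactose arrays, against 3.03 in Control Day 4 and 3.44 in Control Day 6. Slc16a1 carries lactate and pyruvate, and its Control values were nearly equal. Bsg, the membrane partner of these carriers, was at 8.33, 8.92 and 9.31 in the Galactose arrays, against 8.44 in Control Day 4 and 6.60 in Control Day 6, and Control Day 4 lay within the Galactose range.

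Of 12 genes of polyol and galactose metabolism, 4 lay above both Controls (33.3%, beside 21.5% of tested probes) and 0 below. The median was 0.05 against Control Day 4 and 0.54 against Control Day 6. Galt, the transferase of the Leloir pathway, was at 4.97, 5.12 and 5.12 in the Galactose arrays, against 4.50 in Control Day 4 and 4.64 in Control Day 6, and Akr1a1, an aldehyde reductase related to aldose reductase, at 8.04, 7.99 and 8.0 in the Galactose arrays, against 7.46 in Control Day 4 and 6.47 in Control Day 6. Sord, sorbitol dehydrogenase, was at 4.23, 4.93 and 4.90 in the Galactose arrays, against 5.20 in Control Day 4 and 4.29 in Control Day 6. Of 15 genes of glucose uptake and glycolysis, 4 lay above both Controls (26.7%, near the 21.5% of tested probes) and 0 below, with medians of 0.28 and 0.57. Of 14 lysosomal genes, 9 lay above both Controls (64.3%, beside 21.5% of tested probes) and 0 below, with medians of 0.52 and 0.82. Ctsl, the protease cathepsin L, was at 10.18, 10.37 and 10.35 in the Galactose arrays, against 8.0 in Control Day 4 and 8.81 in Control Day 6, and Atp6v0c, a subunit of the proton pump, at 7.88, 8.44 and 8.46 in the Galactose arrays, against 7.52 in Control Day 4 and 5.99 in Control Day 6.

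Of 19 genes of Stat3 and inflammation, 9 of them tested, 4 lay above both Controls and 0 below. The share above was 21.1%, beside 10.7% of all genes and 21.5% of tested probes. Of the tested genes 3 were above 5 in Galactose alone. The medians were 0.20 against Control Day 4 and 0.13 against Control Day 6. Stat3, the transcription factor of cytokine signalling, was at 7.45, 7.70 and 7.77 in the Galactose arrays, against 5.65 in Control Day 4 and 5.32 in Control Day 6. Its difference of 2.16 had the smallest adjusted p of the probes that did not pass (0.0549). Timp1, an inhibitor of matrix metalloproteinases, was at 9.03, 10.11 and 10.50 in the Galactose arrays, against 8.84 in Control Day 4 and 5.33 in Control Day 6, close to Control Day 4 in Galactose 1. Socs3, which Stat3 induces, was at 4.22, 4.32 and 4.65 in the Galactose arrays, against 4.32 in Control Day 4 and 5.15 in Control Day 6, and did not separate the groups. Of 23 immediate early genes, 4 lay above both Controls (17.4%, beside 10.7% of all genes and 21.5% of tested probes) and 0 below. The list had medians of opposite sign, 0.34 against Control Day 4 and -0.42 against Control Day 6. Zfp36, which degrades cytokine RNAs, was at 7.44, 8.15 and 7.50 in the Galactose arrays, against 5.49 in Control Day 4 and 6.22 in Control Day 6, and Fos at 6.19, 6.49 and 5.89 in the Galactose arrays, against 5.70 in Control Day 4 and 6.61 in Control Day 6.

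At least 2-fold above both Controls were 75 probes in all, which stand for 67 genes on probes with 1 gene, with 6 probes that name several, and a few more of them are described here. S100a1, a calcium-binding protein, was at 7.43, 6.38 and 7.09 in the Galactose arrays, against 5.17 in Control Day 4 and 2.22 in Control Day 6. Rbm3, an RNA-binding protein induced by cold, was at 7.93, 7.20 and 7.39 in the Galactose arrays, against 4.53 in Control Day 4 and 4.28 in Control Day 6, and Rcan1, which inhibits calcineurin, at 8.38, 8.84 and 7.48 in the Galactose arrays, against 5.83 in Control Day 4 and 5.59 in Control Day 6. Sdcbp, the scaffold protein syntenin, was at 9.79, 9.89 and 9.58 in the Galactose arrays, against 6.93 in Control Day 4 and 7.56 in Control Day 6, and Magoh, of the exon junction complex, at 6.92, 5.83 and 5.59 in the Galactose arrays, against 3.95 in Control Day 4 and 3.29 in Control Day 6. Tmem140 was at 7.42, 8.49 and 7.91 in the Galactose arrays, against 3.96 in Control Day 4 and 4.93 in Control Day 6 (log2 difference 3.49, adjusted p = 0.0575). The Controls of Rbm3 and Rcan1 lay close together, and those of S100a1 far apart.

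The largest groups of genes stood apart from only 1 of the Controls. Of 127 cytosolic ribosomal proteins, 95 had a higher mean in Galactose, yet the median was -0.03 against Control Day 4 and 0.96 against Control Day 6. Mitochondrial ribosomal proteins (69 genes) had medians of 0.03 and 1.01, oxidative phosphorylation (83 genes) -0.0020 and 1.26, and the proteasome (36 genes) 0.06 and 1.20. Control Day 6 was below Control Day 4 for 97, 63, 64 and 33 genes of these lists. Rpl34, a protein of the large ribosomal subunit, was at 11.83, 11.82 and 11.84 in the Galactose arrays, against 11.48 in Control Day 4 and 9.26 in Control Day 6. Cox6a1, of cytochrome oxidase, was at 10.45, 10.53 and 10.37 in the Galactose arrays, against 10.29 in Control Day 4 and 7.66 in Control Day 6, and Psmb2, of the catalytic core of the proteasome, at 8.54, 8.39 and 8.43 in the Galactose arrays, against 7.62 in Control Day 4 and 5.79 in Control Day 6. In each the Galactose arrays were nearer to Control Day 4, and Control Day 6 was the array that stood apart. Over these lists, Mrpl49 and Ndufs5 were the members at least 2-fold above both Controls. Mrpl49, of the large mitochondrial subunit, was at 5.99, 6.38 and 6.23 in the Galactose arrays, against 4.98 in Control Day 4 and 3.88 in Control Day 6, and Ndufs5, of complex I, at 6.74, 6.63 and 6.53 in the Galactose arrays, against 5.45 in Control Day 4 and 5.27 in Control Day 6.

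**Figure D5:**
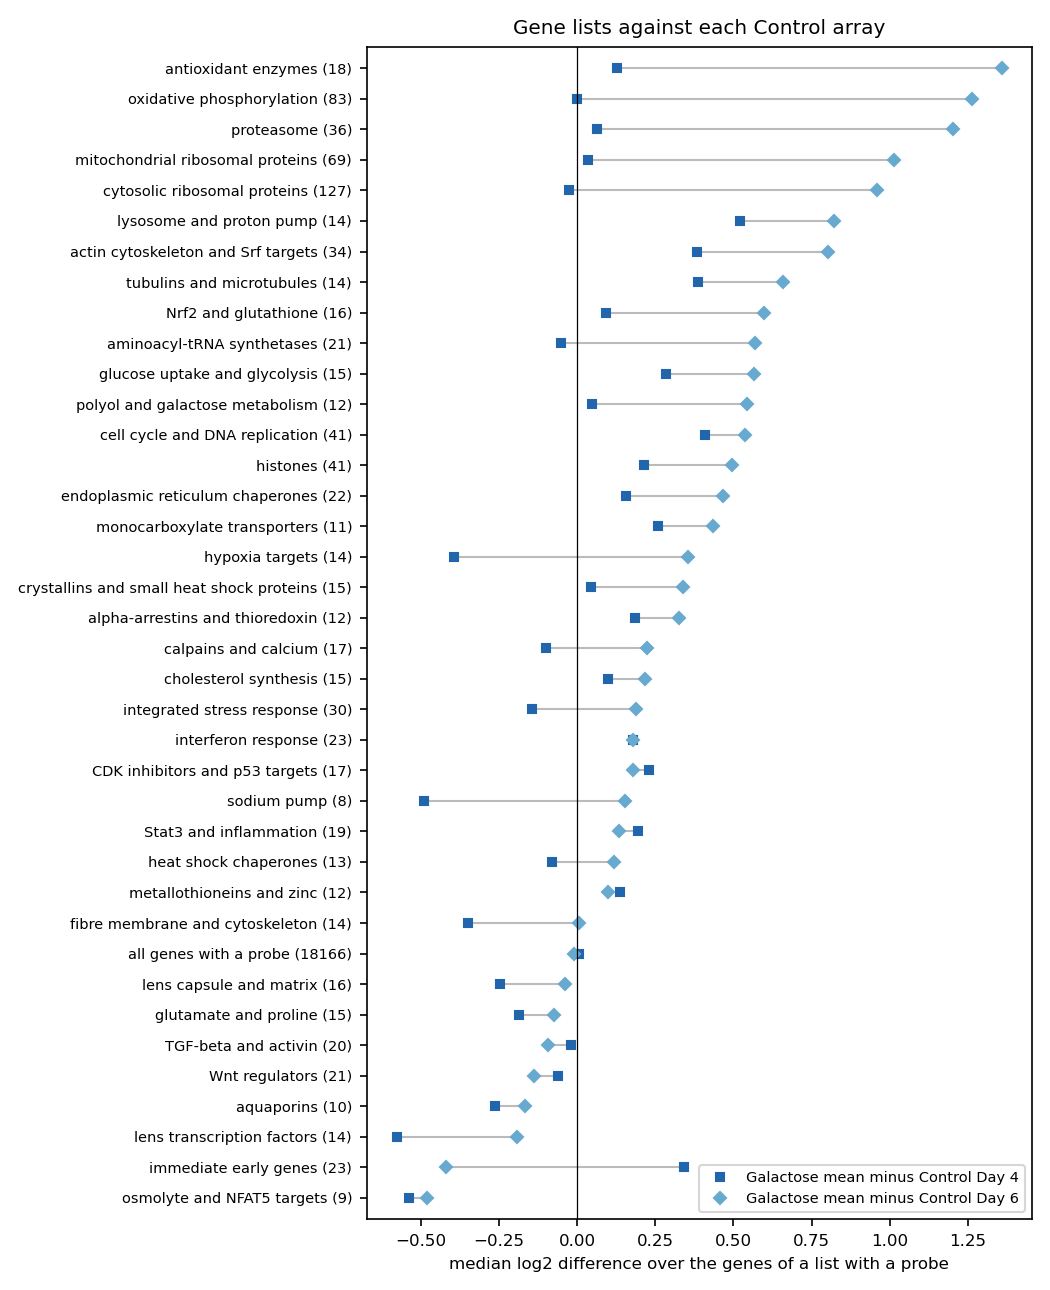
Median log2 difference over all genes with a probe of each list with at least 5 of them (number in brackets), as the Galactose mean minus Control Day 4 (square) and minus Control Day 6 (diamond). The 2 symbols lie on the same side of 0 and close together for osmolyte and NFAT5 targets (-0.54 and -0.48) and for cell cycle and DNA replication (0.41 and 0.54), and far apart for cytosolic ribosomal proteins (-0.03 and 0.96).

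For a few genes the Galactose mean lay between the Controls, at least 2-fold from each. There were 4 probes at least 2-fold above Control Day 4 and below Control Day 6, and 22 the other way. Gdf15, a hormone secreted by stressed cells, was at 8.01, 7.82 and 8.32 in the Galactose arrays, against 5.25 in Control Day 4 and 10.08 in Control Day 6. Other named genes of this kind, Rpl31-ps11, Rpl22-ps2, Rpl28l1, Rpl29l1 and LOC100362296, ran the other way, with Control Day 4 highest and Control Day 6 lowest. Rpl31-ps11 was at 8.59, 6.93 and 6.34 in the Galactose arrays, against 8.60 in Control Day 4 and 4.70 in Control Day 6. For such genes the sign of the difference from the Control mean (0.38 for Gdf15, standard error 1.27) says nothing of either Control.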

How the data were processed

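Total RNA of rat lenses was amplified, biotin labelled and hybridised to GeneChip Rat Gene 2.0 ST arrays, 1 per sample. The authors processed the 7 arrays jointly by Robust Multi-array Average (software version not given in the sources used here) and deposited the result as a log2 signal for each probe. That normalization assumes 1 distribution of signals in every array. Gene names came from the platform's annotation (18511 with 1 gene, 575 with several, 17599 probes with none, which were left out), and probes at 5 or below in all 7 arrays were left out, as in the study's methods. Those methods select genes by folds of group means with no test. Here a linear model of the 7 arrays, holding a mean for each of the 3 groups, was fitted in limma 3.58.1 (R 4.3.3; 4 residual and 2.73 prior degrees of freedom), with Benjamini-Hochberg adjustment over 5320 probes and a threshold of 0.05. Nothing states that arrays came from separate animals, so a p measures only how these samples spread, which may be technical, and the number of arrays limits the precision.

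Gaps of at least 2-fold to both Controls, differences from each Control, gene lists (all members with a probe) and promoter matches are descriptions made with Python 3.11.15, numpy 2.4.6 and pandas 2.3.3, with no test. Where a gene has several probes, the probe with the highest mean stands for it. Named genes are those past the threshold, up to 15 with the largest difference each way among genes 2-fold from both Controls, up to 6 between the Controls, and members of each list (its defining genes and its largest differences either way). Other list members were named after their values were seen. The members and lists were chosen with earlier results of these data known. Promoters of RefSeq (GRCr8) were matched by symbol. The alternatives were other filters, quantile normalization repeated on the named probes, subtraction of each array's median, an intensity trend with a robust prior, array weights, 1 probe per gene, only probes with 1 gene, only the 5 arrays compared, other thresholds, and leaving out each array.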

Additional observations from a re-analysis of the deposited data

Results flagged for a closer look

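Of the 2986 probes above 5 that have no gene in the platform annotation, 13 had every Galactose array at least 2-fold above both Control arrays, and as many lay at least 2-fold below both. Among the 5320 named probes tested, these numbers were 75 (1.41%) and 18 (0.338%). Without the 2-fold gap, 331 of the 2986 lay above both Controls and 336 below. These probes stand outside the comparisons, which use named probes, and are given only because they were left out there. The probes were not identified here.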

How the results depend on the processing

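The 5 calls became 1 with only the Galactose and Control arrays in the fit (Slc16a6), 0 with no filter (1121 above and 761 below Control at p under 0.05 without adjustment), 0 with array weights (350 and 84), 20 after a second quantile normalization and 45 after centring each array on its median, where all 5 were kept, and 45 at an adjusted p under 0.10. An intensity trend with a robust prior gave 6 calls and ended that of Slc5a3 (adjusted p = 0.139), keeping 4 of the 5. They ranged from 0 (without any 1 Galactose array) to 1717 (without Control Day 4) as arrays were left out, and numbered 6 without Control Day 6. Where a Control is left out, the lone Control is assumed to vary like the other groups. As arrays were left out, probes at an unadjusted p under 0.05 ranged from 351 to 1917 higher and from 140 to 567 lower. Those that did not overlap ranged from 1276 to 2961 higher and from 728 to 1895 lower, those 2-fold beyond both Controls from 81 to 1037 higher and from 20 to 106 lower, and the lists with a median above 0 over their tested members from 21 to 30 of 37 (28 with all arrays). With an array left out, fewer arrays must lie apart. The counts of probes that did not overlap or lay 2-fold beyond both Controls can then only stay or rise, so their rise is no result. The upper ends were reached without Control Day 4 for the higher probes and without Control Day 6 for the lower. The second quantile normalization gave 522 lower probes at an unadjusted p under 0.05, 1076 that lay below both Controls, 32 by 2-fold, and Galactose means 2-fold below both Controls at 58 probes, above Control Day 6 at 850 and below it at 524. Centring gave 522, 1042 and 28 for the first 3 of these. Without a filter 2077 probes lay above both Controls, 1680 below, and 277 had a mean 2-fold below Control Day 6. With a gap of 1.5-fold in place of 2-fold, 198 probes were above and 65 below both Controls.

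Of 94 genes followed over 10 alternatives, 88 kept the sign of their difference throughout. Many of the 94 were named because every Galactose array lay beyond both Controls. For such genes, leaving out or weighting arrays cannot turn the sign, so a kept sign there is no result. It could turn only where the scaling of the arrays was changed. The 6 that did not keep it were the genes between the Controls, chosen for that position. Leaving out each Control in turn had to give them both signs. After the second quantile normalization Gdf15 turned to -0.15. As arrays were left out, it ranged from -2.03 (without Control Day 4) to 2.80, and Rpl22-ps2 from -2.01 to 1.69. The ranges were -1.32 to 2.59 for Rpl31-ps11, -1.04 to 2.65 for Rpl28l1, -1.15 to 2.43 for Rpl29l1 and -1.43 to 2.14 for LOC100362296, each with its lowest value without Control Day 6. Why the Controls differed at these genes was not tested. Genes given as not separating the groups were not followed. No paired analysis was possible because the Control arrays carry no replicate number in the labels.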
